A study of Homo sapiens with 44 samples.

Results

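The 60 genes described here are expressed for the G2 phase and mitosis. They were chosen by symbol from a list of the cell cycle machinery, with the transcript cluster of each symbol taken from the array. Earlier results of these data were known when they were chosen. The genes made up 60 of 17687 genes with a symbol on the array. RNA levels came from Clariom S human arrays (Affymetrix) of the neuroblastoma cell lines CHP134, in which MYCN is amplified, and SK-N-AS, in which it is not. JMJD6 is a Jumonji-domain protein. The array experiment asked how transcription changed after JMJD6 was depleted for 40 h by a doxycycline (DOX) inducible hairpin. In CHP134 cells, JMJD6 shRNA-1 was measured on 4 arrays with DOX and 4 arrays with vehicle control, JMJD6 shRNA-2 on 4 arrays with DOX and 4 arrays with vehicle control, and a scrambled control shRNA on 6 distinct arrays with DOX and 6 distinct arrays with vehicle control. In SK-N-AS cells, JMJD6 shRNA-2 was measured on 3 arrays with DOX and 3 with vehicle control, and the control shRNA on 3 with DOX and 3 with vehicle control. DOX was given at 2 µg/ml, and the uninduced cells received vehicle control medium. All cells, controls included, carried a stably integrated lentiviral FH1tUTG construct that also encodes GFP, and each line was a GFP-sorted population. The study and the labels speak of repeated array experiments, but neither says that each repeat was a separate culture, so p-values measure the spread between these arrays, which may be technical.

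Cells leave G2 when cyclin B and CDK1 become active, with the Aurora and Polo-like kinases acting beside them. The condensed chromosomes are then attached to the spindle at their kinetochores, the spindle checkpoint holds the anaphase-promoting complex (APC/C) back until every chromosome is attached, and separase then cuts cohesin so that sister chromatids part. Most genes of this machinery are transcribed in G2, when the transcription factors FOXM1 and MYBL2 act with the MuvB complex at a short promoter element, the cell cycle genes homology region (CHR), and NF-Y acts at CCAAT boxes. In quiescent or p53-arrested cells the DREAM complex represses many of these genes, in part through the CHR.

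The deposited log2 intensities had array medians of 6.09 to 6.16 in CHP134 and 6.01 to 6.06 in SK-N-AS, and 72.3% to 80.5% and 75.8% to 81.9% of clusters were brighter than 95% of the negative control probe sets. All 60 genes were above that level on every array of both lines. The lines appeared to have been normalised apart, so a level in one line was set against no level in the other. Among markers, 8 of 9 adrenergic neuroblastoma genes were above the background level on every CHP134 array and 9 of 9 on every SK-N-AS array, as were 4 of 6 mesenchymal genes in CHP134 and 6 of 6 in SK-N-AS. MYCN averaged 12.34 in CHP134 and 4.17 in SK-N-AS. Of 9 markers of other cell types, 4 were above background on every CHP134 array and 6 on every SK-N-AS array. CD3E, CD14, VWF and KRT5 were so in both lines with means of 5.02 to 6.19 in CHP134 and 5.03 to 6.11 in SK-N-AS, and PTPRC, a leukocyte gene, was at 9.75 in SK-N-AS and above background on 0 of 28 CHP134 arrays.

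The targeted gene was lower with DOX on every JMJD6 hairpin array. In shRNA-1 cells JMJD6 was at 7.02, 6.77, 7.08 and 7.16 with DOX in repeats A, B, E and F, against 7.94, 7.70, 7.63 and 7.73 with vehicle. In shRNA-2 cells it was at 6.45, 6.74, 6.69 and 6.90 with DOX in repeats A to D, against 7.80, 7.61, 7.79 and 7.87 with vehicle. In SK-N-AS shRNA-2 cells it was at 6.44, 6.84 and 6.63 with DOX, against 7.26, 7.16 and 7.44 with vehicle. The response to a hairpin was taken as the change from vehicle to DOX in JMJD6 shRNA cells, less that in control shRNA cells. For JMJD6 it averaged -0.85 over both CHP134 hairpins (SE 0.14, limma adjusted p = 0.00153). It passed the test with shRNA-2 in CHP134 (-1.01, limma adjusted p = 0.0193), and did not with shRNA-1 (-0.65, limma adjusted p = 0.590) or in SK-N-AS (-0.64, limma adjusted p = 0.536).

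Some arrays stood apart from others of their label. The 6 SK-N-AS control arrays split across treatment: over all clusters, the unlettered vehicle array and DOX array B deviated together from the mean of the line (r = 0.45), the other 4 control arrays did so among each other (r = 0.36 to 0.43), and arrays of different sets did not (r = -0.39 to -0.31). SK-N-AS results are therefore given with all arrays, without those 2 control arrays, and for the hairpin arrays alone. In CHP134, the uninduced shRNA-1 arrays E and F differed from the control vehicle arrays of the same letter in a way that arrays A and B did not. In both E and F, 162 clusters (0.755%) were lower by more than 1 on the log2 scale, and 4 of them were mitotic genes (CENPE, CENPF, KIF15 and MKI67), whereas 0 clusters were so in both A and B.

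In CHP134 cells, FOXM1 and AURKA were lower after induction of the JMJD6 hairpins, and most of the other mitotic genes had small responses below 0 that did not pass the test. The mean response to shRNA-1 and shRNA-2 was below 0 for 55 of 60 genes, with a median of -0.23 on the log2 scale and a range of -1.27 to 0.38. Over all 21448 clusters the median was 0.00 and 49.6% were below 0. FOXM1 and AURKA were called lower and 0 genes higher, where 1.25% of all clusters were called. At an unadjusted p under 0.05, 19 of 60 genes were lower and 0 higher, against 5.62% of all clusters lower. This fit did not pair the arrays by repeat letter. With the letter as a block, described below, 11 genes were called lower, where 6.18% of all clusters were called. In bulk RNA, fewer cells in G2 and mitosis and less of each transcript per cell cannot be told apart.

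**Figure D1:**
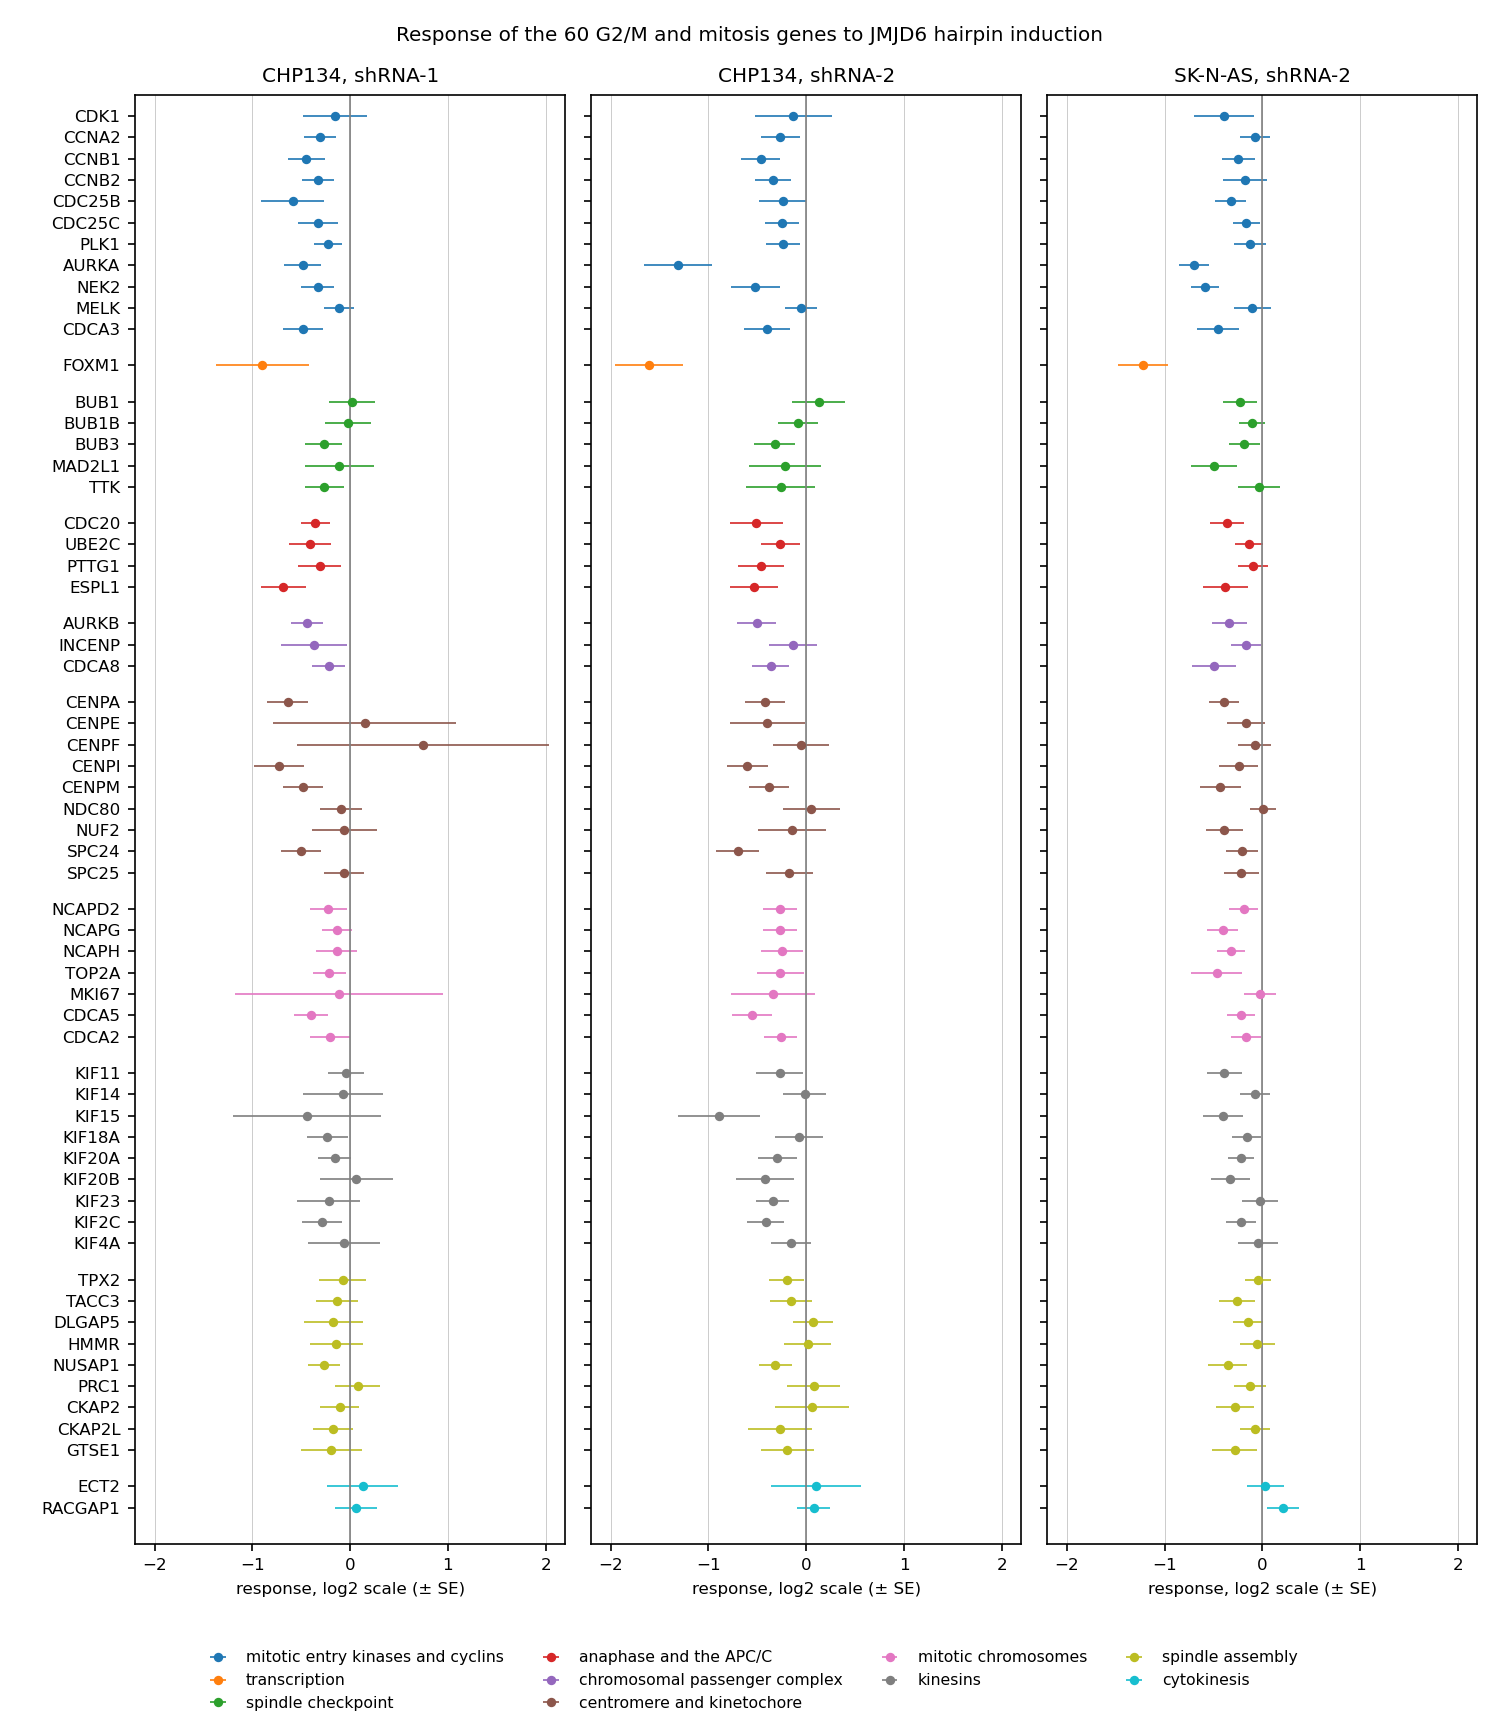
Response of each of the 60 genes on the log2 scale (x axis, ± SE; change with DOX in JMJD6 shRNA cells less that in control shRNA cells), with genes down the page and coloured by role, in panels for shRNA-1 and shRNA-2 in CHP134 and shRNA-2 in SK-N-AS. Most points lie left of 0, and FOXM1 and AURKA lie farthest left for shRNA-2 in both lines.

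FOXM1 encodes the forkhead transcription factor that drives expression of many other genes of the list. In shRNA-1 cells it was at 9.59, 10.05, 8.99 and 8.95 with DOX in repeats A, B, E and F, against 10.68, 10.93, 9.78 and 9.58 with vehicle. Each DOX array was below the vehicle array of its own letter, but the groups overlapped, because letters E and F were lower than A and B under both treatments. In shRNA-2 cells it was at 8.02, 9.38, 9.02 and 9.08 with DOX in repeats A to D, against 10.51, 10.72, 10.22 and 10.33 with vehicle, with no overlap. Control shRNA cells held 9.95, 10.28 and 10.88 with DOX (lowest, median and highest of 6), against 9.90, 10.21 and 10.89 with vehicle. The mean response was -1.27 (SE 0.33, 2.40-fold lower, limma adjusted p = 0.0496), just inside the threshold. Leaving out 1 array at a time gave adjusted p = 0.0274 to 0.0962, and the call was lost in 20 of 28 such fits. These fits did not pair the arrays by repeat letter. With the letter as a block, described below, FOXM1 was called.

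AURKA encodes Aurora A, the kinase that matures centrosomes and builds the bipolar spindle. In shRNA-1 cells it was at 9.43, 9.66, 9.75 and 9.79 with DOX, against 9.86, 10.09, 10.25 and 10.25 with vehicle. In shRNA-2 cells it was at 8.23, 8.85, 9.56 and 9.40 with DOX, against 10.05, 10.06, 10.61 and 10.66 with vehicle. For both hairpins every DOX array was below every vehicle array of the same hairpin, and shRNA-2 repeats A and B were the lowest of all. Control shRNA cells held 9.92, 10.32 and 10.59 with DOX (lowest, median and highest), against 10.03, 10.22 and 10.50 with vehicle. The mean response was -0.91 (SE 0.22, 1.88-fold lower, limma adjusted p = 0.0342). The call was lost in 14 of 28 fits that left out 1 array (adjusted p = 0.0114 to 0.0707), and without the 4 shRNA-1 arrays E and F (adjusted p = 0.0674). These fits, too, held no block for the repeat letter, and with that block AURKA was called.

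**Figure D2:**
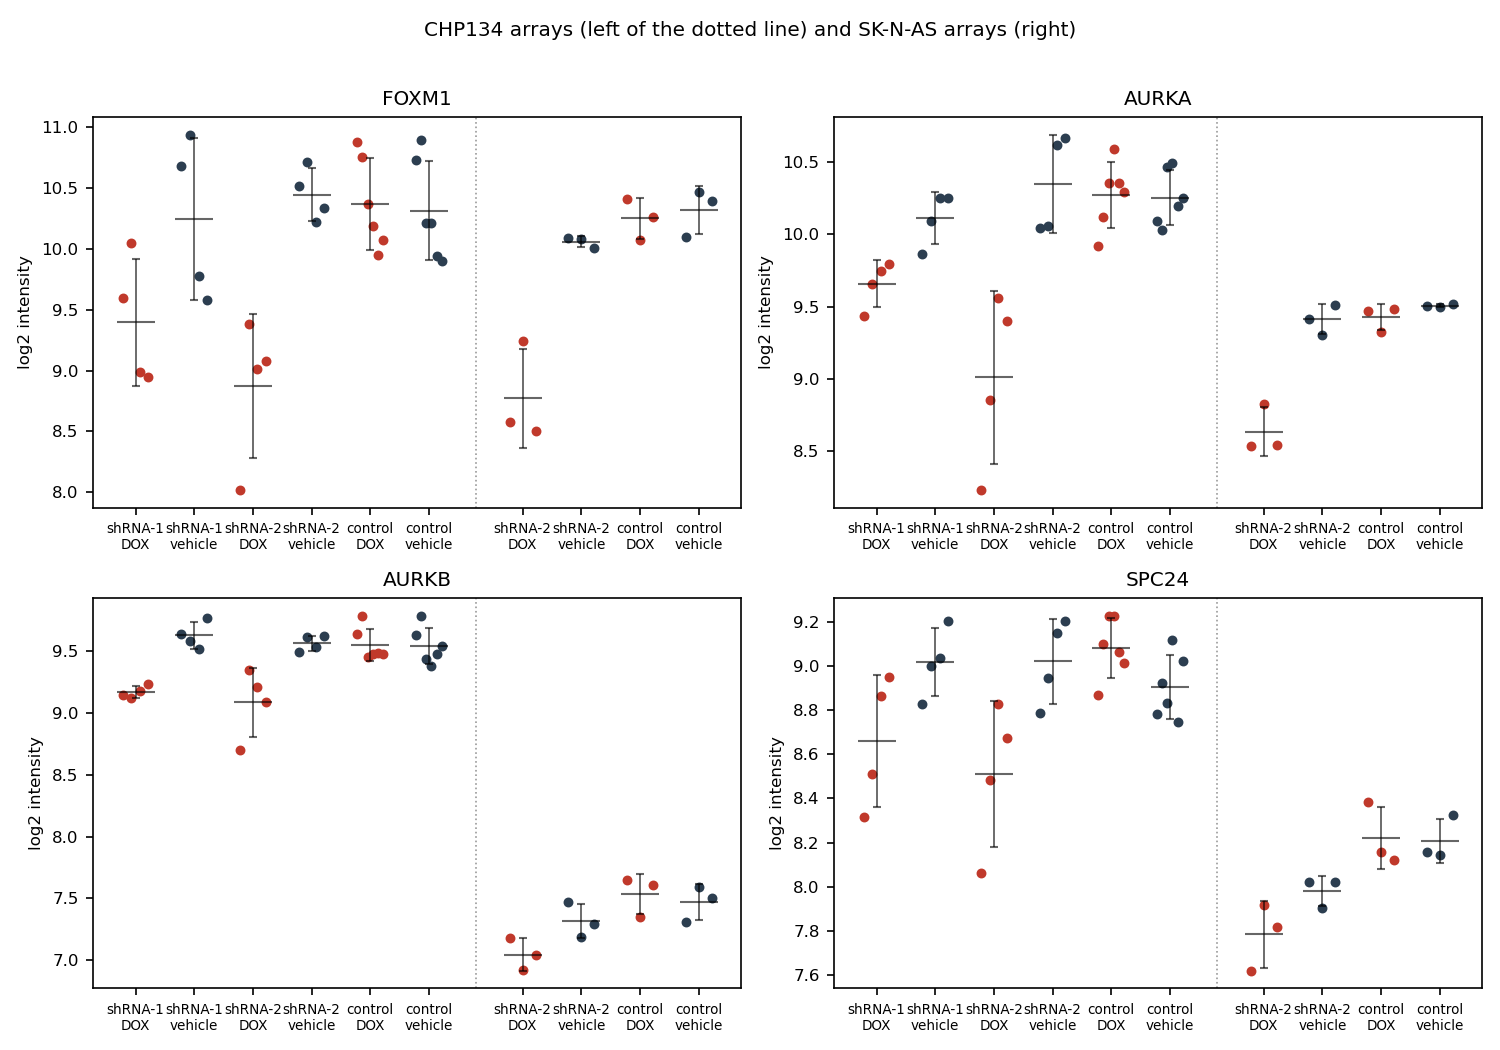
Deposited log2 intensity (y axis) of FOXM1, AURKA, AURKB and SPC24 on every array, by line, hairpin and treatment (x axis); points are arrays and bars are mean ± SD. AURKA with shRNA-2 averaged 9.01 ± 0.60 with DOX and 10.35 ± 0.34 with vehicle in CHP134 (SD, n = 4 each), and FOXM1 8.87 ± 0.59 with DOX and 10.45 ± 0.22 with vehicle.

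AURKB encodes Aurora B, the kinase of the chromosomal passenger complex, which corrects faulty attachments and drives cytokinesis. In shRNA-1 cells it was at 9.15, 9.13, 9.18 and 9.24 with DOX, against 9.64, 9.59, 9.52 and 9.77 with vehicle. In shRNA-2 cells it was at 8.70, 9.35, 9.21 and 9.09 with DOX, against 9.49, 9.61, 9.54 and 9.62 with vehicle. The groups did not overlap for either hairpin, and the mean response was -0.48 (SE 0.13, limma adjusted p = 0.0728). SPC24 is a subunit of the NDC80 complex, which grips spindle microtubules at the kinetochore. It was at 8.32, 8.51, 8.87 and 8.95 with DOX, against 8.83, 9.00, 9.04 and 9.21 with vehicle in shRNA-1 cells. With shRNA-2 it was at 8.06, 8.48, 8.83 and 8.68 with DOX, against 8.79, 8.95, 9.15 and 9.21 with vehicle. These groups overlapped slightly for both hairpins, each DOX array lay below the vehicle array of its letter, and the mean response was -0.61 (SE 0.17, limma adjusted p = 0.0628). Without the shRNA-1 arrays E and F, SPC24 passed the test (-0.68, limma adjusted p = 0.0339), where 1.83% of all clusters did.

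The repeat letters were taken to pair the CHP134 arrays, and a block for the letter changed many calls. With the letter as a replicate block, 11 of 60 genes were called lower in the mean response and 0 higher, where 6.18% of all clusters were called. These were FOXM1 (adjusted p = 0.00043), AURKA (0.000114), SPC24 (0.00158), CENPI (0.00466), CENPA (0.00878), ESPL1 (0.00968), CCNB1 (0.0097), CENPM (0.0161), AURKB (0.0177), CDCA5 (0.0345) and NEK2 (0.0355). With a block for each hairpin and letter, chosen after the data were seen, 14 genes were called lower, where 7.86% of all clusters were, and CDC25B, CDCA3 and CDC20 joined the 11.

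Among the 11 genes that start mitosis, all had a mean response below 0 (median -0.29), 5 at an unadjusted p under 0.05. CCNB1, cyclin B1, was at 9.44, 9.29, 9.51 and 9.33 with DOX in shRNA-1 cells, against 9.62, 9.84, 10.10 and 9.92 with vehicle. With shRNA-2 it was at 8.89, 9.27, 9.47 and 9.49 with DOX, against 9.65, 9.79, 9.81 and 9.99 with vehicle. Neither pair of groups overlapped, and the mean response was -0.48 (SE 0.15, limma adjusted p = 0.109). NEK2, a kinase that helps duplicated centrosomes to separate, had a mean response of -0.41 (SE 0.16, limma adjusted p = 0.313). CDK1 itself had a wider spread than either, with values in control DOX cells between 8.12 and 9.14.

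Of the spindle checkpoint genes BUB1, BUB1B, BUB3, MAD2L1 and TTK, 4 of 5 had a mean response below 0 (median -0.17), 0 of them at an unadjusted p under 0.05. BUB3, which brings the other BUB proteins to kinetochores, had -0.29, and BUB1, a kinase that binds it, had 0.07. All 4 anaphase genes were below 0 at an unadjusted p under 0.05, with a median of -0.42. ESPL1, separase, was at 8.20, 7.84, 7.91 and 7.84 with DOX in shRNA-1 cells, against 8.98, 8.61, 8.51 and 8.12 with vehicle, so that every letter was lower with DOX. In shRNA-2 cells it was at 8.23, 8.59, 8.32 and 8.38 with DOX, against 9.07, 9.05, 8.27 and 8.48 with vehicle, and letter C did not share the direction. Its mean response was -0.62 (SE 0.19, limma adjusted p = 0.104). CDC20, the activator of the APC/C in metaphase, had -0.48 (SE 0.18, limma adjusted p = 0.241).

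Among the passenger complex genes, CDCA8, which encodes borealin, had -0.32 (SE 0.13, limma adjusted p = 0.321), and 3 of 3 genes were below 0 (median -0.32). Of the 9 centromere and kinetochore genes, 8 were below 0 (median -0.14), 4 at an unadjusted p under 0.05. CENPA, the histone H3 variant that marks the centromere, was at 7.40, 7.66, 7.80 and 7.55 with DOX in shRNA-1 cells, against 8.06, 7.95, 8.40 and 8.64 with vehicle. In shRNA-2 cells it was at 7.45, 7.64, 8.01 and 8.01 with DOX, against 7.96, 8.03, 8.27 and 8.34 with vehicle. The shRNA-1 groups did not overlap, the shRNA-2 groups overlapped slightly, and the mean response was -0.52 (SE 0.16, limma adjusted p = 0.110). CENPI, an inner kinetochore protein needed for CENPA loading, was at 6.58, 6.33, 6.31 and 6.54 with DOX in shRNA-1 cells, against 7.29, 7.46, 6.89 and 6.80 with vehicle. Its groups did not overlap for either hairpin, and the mean response was -0.66 (SE 0.20, limma adjusted p = 0.122).

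The 7 genes of mitotic chromosomes were all below 0 (median -0.23), 1 of them at an unadjusted p under 0.05. This was CDCA5, sororin, which protects cohesin until anaphase (-0.49, SE 0.15, limma adjusted p = 0.104). NCAPD2, a condensin subunit, had -0.27 (SE 0.14, limma adjusted p = 0.507), and TOP2A, the topoisomerase that untangles sister chromatids, had -0.23. The 9 kinesins were also all below 0 (median -0.16), with KIF2C, a microtubule depolymerase, at -0.34 (SE 0.15, limma adjusted p = 0.365) and KIF20A, which acts in cytokinesis, at -0.26 (SE 0.14, limma adjusted p = 0.560). Of the 9 spindle assembly genes, 8 were below 0 (median -0.12). NUSAP1, which bundles microtubules near chromatin, had -0.29 (SE 0.12, limma adjusted p = 0.363), CKAP2L, a spindle protein, had -0.21 (SE 0.24, limma adjusted p = 0.916), and PRC1, which bundles the antiparallel microtubules of the midzone, had 0.09. The 2 genes grouped under cytokinesis were not below 0, whereas KIF20A and AURKB, which also act there but were grouped elsewhere, were. ECT2, which acts at the cleavage furrow, and RACGAP1, a subunit of the centralspindlin complex, both had a mean response of 0.07. That of ECT2 was -0.16 to 0.18 when 1 array was left out.

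The hairpins were then taken apart. The shRNA-1 and shRNA-2 responses share the control arrays A and B, so they are given side by side. With shRNA-1, 53 of 60 genes were below 0 (median -0.22, range -0.90 to 0.75) and 0 were called, as were 0% of all clusters. The smallest adjusted p was 0.637, and 11 genes were lower at an unadjusted p under 0.05, against 3.02% of all clusters. With shRNA-2, 52 of 60 were below 0 (median -0.27, range -1.61 to 0.13), FOXM1 alone was called, where 0.779% of all clusters were, and 10 genes were lower at an unadjusted p under 0.05, against 5.52% of all clusters. FOXM1 had a response of -0.90 to shRNA-1 (limma adjusted p = 0.984) and -1.61 to shRNA-2 (SE 0.35, limma adjusted p = 0.0342). The shRNA-2 call was lost in 10 of 16 fits that left out 1 array (adjusted p = 0.0246 to 0.0838). AURKA had -0.48 and -1.31 (SE 0.35, limma adjusted p = 0.0881 with shRNA-2), and SPC24 had -0.50 and -0.70 (limma adjusted p = 0.187 with shRNA-2). CENPA, CENPI and ESPL1 had -0.64, -0.73 and -0.68 with shRNA-1, against -0.42, -0.60 and -0.53 with shRNA-2.

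With the replicate block, 0 genes were called for shRNA-1, where 0.0746% of clusters were, and 3 were called lower for shRNA-2, where 4.47% were (AURKA, adjusted p = 0.00199; FOXM1, 0.0085; SPC24, 0.0158). The block of hairpin and letter called FOXM1 lower for shRNA-1 (adjusted p = 0.0422), where 0.518% of clusters were called, and the same 3 genes for shRNA-2, where 4.6% were. Taking the hairpin arrays alone, with no control arrays subtracted, the mean change called 20 genes lower, where 8.62% of clusters were called. In that fit shRNA-1 called CENPA (-0.66, adjusted p = 0.047), where 0.881% were called, and shRNA-2 called 8 genes (CCNB1, AURKA, FOXM1, CENPI, CDCA5, KIF15, KIF2C and NUSAP1), where 5.51% were.

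The shRNA-2 response minus the shRNA-1 response had a median of -0.14 over the 60 genes, with 44 below 0. Leaving out 1 array at a time gave medians of -0.20 to 0.00, and the median was at 0.00 without shRNA-2 DOX array A. None of the 60 was called, where 0.00932% of all clusters were, the smallest adjusted p was 0.664, and 1 gene was under an unadjusted p of 0.05. This was AURKA, lower with shRNA-2 than with shRNA-1 by -0.88 (SE 0.29, limma adjusted p = 0.664). With the replicate block AURKA was called (adjusted p = 0.016), where 0.326% of clusters were, and with the block of hairpin and letter as well (adjusted p = 0.0173), where 0.382% were.

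The repeats were then compared. The median DOX minus vehicle change over the 60 genes was -0.14, -0.26, -0.11 and -0.30 in repeats A, B, E and F of shRNA-1, and -0.62, -0.26, -0.14 and -0.25 in repeats A to D of shRNA-2. In control cells it lay between -0.18 and 0.07 in 6 repeats. Every hairpin repeat was below 0, but control repeat C (-0.18) was below shRNA-2 repeat C and below shRNA-1 repeats A and E. With the change of the control repeat of the same letter subtracted, the medians were 0.00, -0.35, -0.18 and -0.39 for shRNA-1 and -0.52, -0.30, -0.02 and -0.22 for shRNA-2, so shRNA-1 repeat A and shRNA-2 repeat C were at or near 0. Of the 60 genes, 15 were lower in all 8 of these comparisons and 32 in at least 7. The share of all clusters was not counted for this, so these counts are no result about these genes. The comparisons are also not separate, because control repeats A and B were subtracted from both hairpins. The shRNA-2 DOX arrays A and B also had the smallest gaps between positive and negative control probe sets in CHP134 (7.39 and 7.44, in a range of 7.39 to 7.90), and the part of this in their lower values was not tested.

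**Figure D3:**
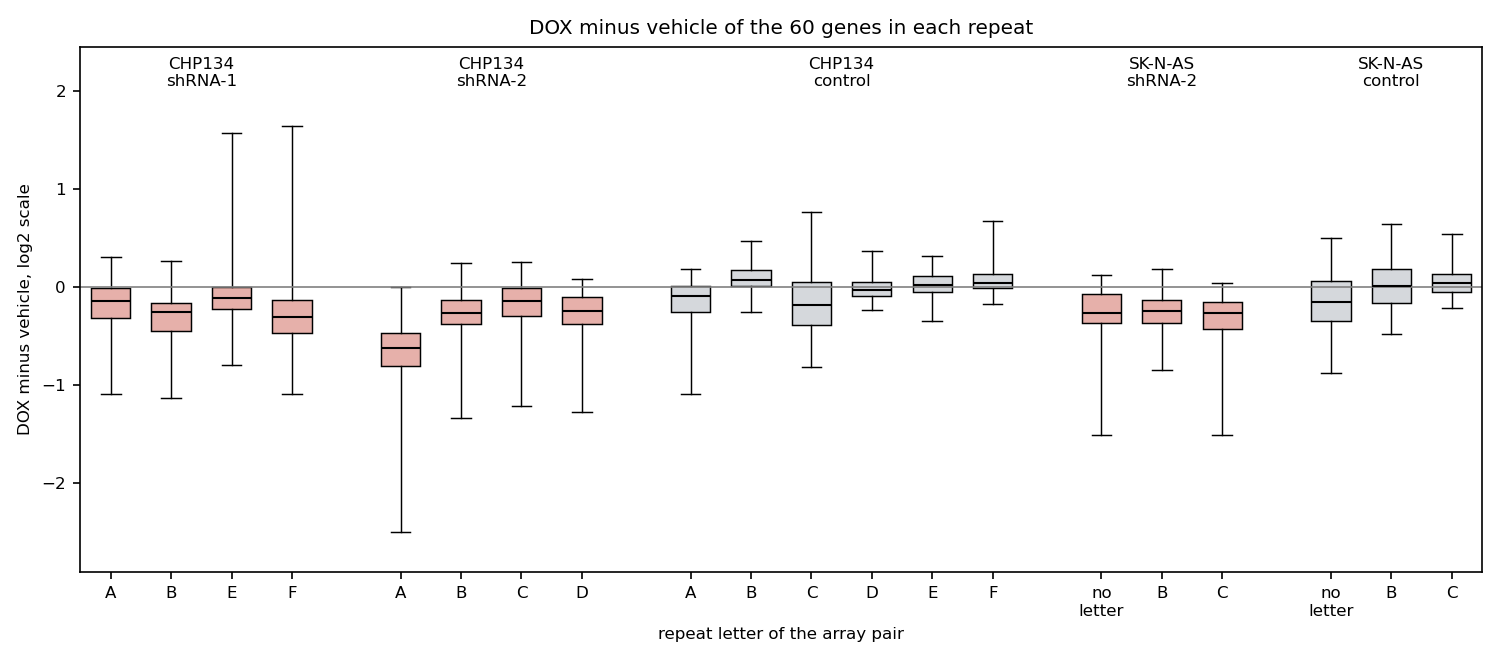
DOX minus vehicle change on the log2 scale (y axis) of the 60 genes in each repeat, by line and hairpin (x axis); boxes give the median and quartiles and whiskers reach the lowest and highest gene. The JMJD6 hairpin repeats have medians between -0.62 and -0.11, and the CHP134 control repeats between -0.18 and 0.07.

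Within pairs of letters, the median response was below 0 in each. It was -0.20 in letters A and B and -0.28 in E and F for shRNA-1 (48 and 54 genes below 0). For shRNA-2 it was -0.42 in A and B and -0.11 in C and D (57 and 41 genes below 0). In each fit 0 genes were called, but calls over all clusters were not counted there, so this is no result about these genes. For shRNA-1, FOXM1 had -0.99 in A and B and -0.80 in E and F, and AURKA -0.39 and -0.58. For shRNA-2, FOXM1 had -1.92 in A and B and -1.30 in C and D, and AURKA -1.47 and -1.15. With the pairs of letters as a block, 10 genes were called lower in the mean response, where 5.61% of all clusters were called.

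In SK-N-AS cells with shRNA-2, 57 of 60 genes had a response below 0 (median -0.22, range -1.22 to 0.22), and 0 were called, as were 0% of all clusters. The smallest adjusted p was 0.269, and 8 genes were lower at an unadjusted p under 0.05, against 3.34% of all clusters. FOXM1 was at 8.58, 9.24 and 8.50 with DOX in the 3 repeats, against 10.09, 10.08 and 10.01 with vehicle. Control shRNA cells held 10.41, 10.08 and 10.26 with DOX, against 10.10, 10.47 and 10.39 with vehicle. Every hairpin DOX array was below all 9 others, and the response was -1.22 (SE 0.25, 2.33-fold lower, limma adjusted p = 0.269). Of 12 fits that left out 1 array, FOXM1 passed only in that without shRNA-2 DOX array B, the highest of the 3 (-1.45, limma adjusted p = 0.0249), where 0.126% of all clusters were called. AURKA was at 8.54, 8.83 and 8.54 with DOX, against 9.42, 9.30 and 9.51 with vehicle. In control cells it was at 9.47, 9.33 and 9.48 with DOX, against 9.50, 9.49 and 9.52 with vehicle, and its response was -0.70 (SE 0.16, limma adjusted p = 0.308).

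NEK2 was at 7.99, 8.05 and 8.05 with DOX in SK-N-AS shRNA-2 cells, against 8.46, 8.59 and 8.68 with vehicle, without overlap (-0.59, SE 0.14, limma adjusted p = 0.358). NCAPG, a condensin subunit, was at 8.90, 8.97 and 8.83 with DOX, against 9.17, 9.43 and 9.33 with vehicle (-0.40, limma adjusted p = 0.783). CENPA had -0.39 (SE 0.15, limma adjusted p = 0.783) and NCAPH, another condensin subunit, had -0.32 (limma adjusted p = 0.860). AURKB had -0.34, and SPC24 had -0.21. By role, and apart from FOXM1, the medians ran from -0.34 for the passenger complex to -0.15 for spindle assembly, with the 2 genes grouped under cytokinesis at 0.12.

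Without the 2 control arrays that stood apart, the SK-N-AS median was -0.22 again, 0 genes were called, FOXM1 had -1.20 (limma adjusted p = 0.259) and AURKA -0.75 (limma adjusted p = 0.271). In the hairpin arrays alone, with no control arrays subtracted, 59 of 60 genes were below 0 (median -0.26). There FOXM1 (-1.29, SE 0.18, limma adjusted p = 0.00877), AURKA (-0.78, SE 0.11, limma adjusted p = 0.0101) and NEK2 (-0.55, SE 0.10, limma adjusted p = 0.0318) were called lower, where 0.522% of all clusters were called. This change includes any effect of DOX itself. With the control change of the same letter subtracted, the median over the 60 genes was -0.02 in the unlettered repeat, -0.22 in B and -0.31 in C, although before subtraction it was -0.26, -0.24 and -0.27. The control repeats themselves had medians of -0.15, 0.01 and 0.04.

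Groups without overlap were also counted. Every DOX array lay below every vehicle array of the same hairpin for 15 of 60 genes with shRNA-1, where 2.81% of all clusters did, for 16 with shRNA-2 in CHP134, where 5.79% did, and for 39 with shRNA-2 in SK-N-AS, where 8.21% did. In SK-N-AS 1 gene, RACGAP1, lay above in the same way (9.62, 9.65 and 9.63 with DOX, against 9.53, 9.58 and 9.59 with vehicle). These counts leave the control shRNA arrays out. Where DOX arrays also had to lie below every control array of the line, 8, 10 and 18 genes did. The share of all clusters was not counted for this, so these counts are no result about these genes. Below the vehicle arrays with both CHP134 hairpins were the same 10 genes, which is 10 of 15 and 10 of 16. Over all clusters, 262 (1.22%) did so with both, of 602 with shRNA-1 and 1241 with shRNA-2. The 10 genes were AURKA, AURKB, CCNB1, CDC20, CDCA5, CDCA8, CENPI, KIF2C, NEK2 and NUSAP1. All 10 also did so in SK-N-AS, as did 144 of the 262 clusters (0.671% of all clusters). AURKA, AURKB and CDCA5 were also below every control array of the line in all 3 sets of arrays, again with no share of all clusters to set beside them. CDC20 and NEK2 were so with neither CHP134 hairpin.

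The genes with the largest standard errors for shRNA-1 were those in which arrays E and F stood apart. CENPF, a large kinetochore protein that accumulates in G2, was at 9.72, 10.07, 7.23 and 6.95 with DOX in shRNA-1 repeats A, B, E and F, against 9.73, 10.10, 5.66 and 5.31 with vehicle. CENPE, the kinesin that carries chromosomes to the metaphase plate, was at 7.90, 8.33, 5.79 and 5.70 with DOX, against 7.85, 8.50, 5.66 and 4.93 with vehicle. MKI67, the Ki-67 protein that coats mitotic chromosomes, was at 8.76, 8.85, 6.14 and 6.28 with DOX, against 9.00, 9.53, 6.26 and 5.57 with vehicle. Letters E and F were far below A and B under both treatments. KIF15, a kinesin that keeps spindle poles apart, was at 5.78, 6.24, 4.51 and 4.18 with DOX, against 5.88, 7.04, 4.72 and 4.19 with vehicle. The shRNA-1 vehicle arrays E and F differed from the control vehicle arrays of the same letter by -3.86 and -4.02 for CENPF, -2.47 and -3.25 for CENPE, -2.22 and -2.85 for MKI67 and -1.27 and -1.50 for KIF15. The standard errors of their shRNA-1 responses were 1.28 for CENPF, 1.06 for MKI67, 0.94 for CENPE and 0.76 for KIF15. The mean response of CENPF, the highest of the 60 at 0.38 (SE 0.78), held a change of 1.53 in letters E and F and of -0.04 in A and B for shRNA-1.

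**Figure D4:**
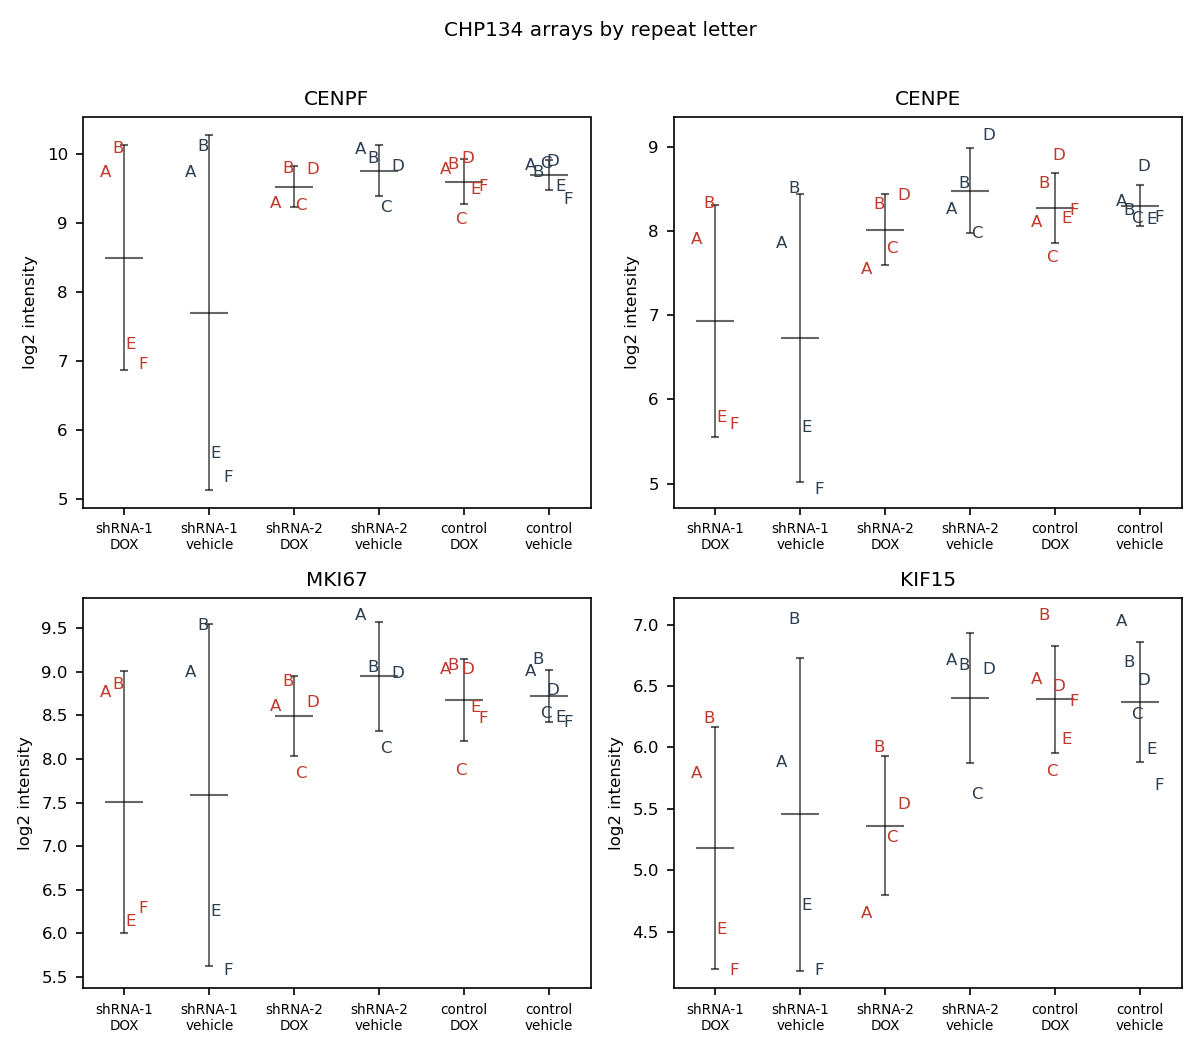
Deposited log2 intensity (y axis) of CENPF, CENPE, MKI67 and KIF15 on every CHP134 array, by hairpin and treatment (x axis), with each point marked by its repeat letter. Letters E and F of shRNA-1 lie below every other array under both treatments for CENPF, CENPE and MKI67.

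Before induction, the shRNA-1 vehicle arrays differed from control vehicle arrays by a median of -0.14 (range -1.99 to 0.30), with 44 of 60 genes below 0. None was called, as were 0% of all clusters, and 15 were lower at an unadjusted p under 0.05, against 6.12% of all clusters. CENPF had -1.99 (SE 0.66, limma adjusted p = 0.260), CENPE -1.57 (limma adjusted p = 0.257), DLGAP5 and PRC1 -0.53 each. Without shRNA-1 vehicle array B, CENPE (-2.16) and CENPF (-2.79) were both called (adjusted p = 0.0324), where 1.01% of all clusters were. Without the 4 arrays of letters E and F, the sign of the CENPF difference turned (0.22, limma adjusted p = 0.744). Uninduced shRNA-2 cells differed by a median of 0.02 in CHP134, where 0% of all clusters were called, and of 0.01 in SK-N-AS, where 0.00466% were, with 0 of the 60 genes called in either. The members with the smallest p were CENPI (0.30), ESPL1 (0.24), INCENP (0.27) and NDC80 (-0.23) in CHP134, and MKI67 (-0.24), CENPA (-0.22), CDCA5 (-0.20) and SPC24 (-0.23) in SK-N-AS. Without the 2 SK-N-AS control arrays that stood apart, 2 genes were called higher in uninduced shRNA-2 cells, where 4.96% of all clusters were called. These were CDK1 and TOP2A, named after their values were seen, which differed by 0.26 and 0.29 with all arrays (limma adjusted p = 0.773 and 0.697).

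DOX itself was measured in control shRNA cells. The median change over the 60 genes was -0.02 in CHP134 (range -0.17 to 0.18) and -0.03 in SK-N-AS (range -0.20 to 0.16). None of the 60 was called in either line, 0 were at an unadjusted p under 0.05, and 0% of all clusters were called in both. SPC24 changed by 0.18 in CHP134 control cells (SE 0.13), ESPL1 by 0.15, CENPM by 0.10 and NUF2 by -0.17. In SK-N-AS the members with the smallest p were KIF14 (-0.20), KIF2C (-0.18), PTTG1 (-0.18) and TPX2 (-0.15).

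Other lists of pathway genes had CHP134 medians nearer 0 than the -0.23 of the genes described here. The gap was small for the other kinetochore proteins (-0.20). Their median was farther from 0 than that of the centromere and kinetochore genes above. The genes described here were chosen with earlier results of these data known, and their difference from these lists was not tested. In the CHP134 mean response, 14 of 17 APC/C subunits were below 0 with a median of -0.11, and 0 were called. The medians were 0.05 for 13 cohesin genes, -0.14 for 5 other condensin subunits, -0.20 for 27 other kinetochore proteins, -0.13 for 10 genes of the MuvB and DREAM complexes with MYBL2, and -0.11 for 27 other genes expressed in G2 and mitosis. None of these was called. Of 15 regulators of mitotic entry (median -0.03), 1 was called lower, namely BORA, the cofactor with which Aurora A activates Polo-like kinase (-0.70, SE 0.18, limma adjusted p = 0.0433). In SK-N-AS these lists had medians between -0.13 and -0.03, and 0 of their genes were called. The adrenergic neuroblastoma markers had a median of 0.24 in the CHP134 mean response, with 7 of 9 above 0 and 0 called.

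Promoter sequence was available for 51 of the 60 genes from RefSeq (GRCh38.p14), and it was read over the 250 bases before the start of transcription. The CHR was searched as TTTGAA or TTCGAA, the CCAAT box as CCAAT, and the E2F site as TTCCCGC, as TTCGCGC, as TTGGCGC or as TTGCCGC, on both strands with overlapping matches counted. A CHR was held by 26 of 51 promoters (51.0%), against 14.6% of 27305 promoters of the same length. A CCAAT box was held by 37 (72.5%), against 33.0%, both elements by 22 (43.1%), against 5.24%, and an E2F site by 13 (25.5%), against 11.0%. The median mean response in CHP134 was -0.21 for the genes with a CHR and -0.26 for those without, -0.23 with a CCAAT box and -0.15 without, and -0.29 with an E2F site and -0.21 without. In SK-N-AS the medians were -0.18 with a CHR and -0.24 without, -0.21 with a CCAAT box and -0.23 without, and -0.35 with an E2F site and -0.18 without. A match is only a string of letters in this window, and these medians were not tested. Other spellings of the elements were not searched, so without a CHR means without either of these strings. The promoters of genes described above are given 5′ to 3′ on the strand of the gene, with matches to the 3 elements in capitals. CENPA and CDC20 show CHR and CCAAT boxes, and CCNB1, AURKB and SPC24 show neither CHR string. ECT2, whose mean response in CHP134 was near 0, shows both elements.
CENPA, chr2:26785806-26786055, plus strand: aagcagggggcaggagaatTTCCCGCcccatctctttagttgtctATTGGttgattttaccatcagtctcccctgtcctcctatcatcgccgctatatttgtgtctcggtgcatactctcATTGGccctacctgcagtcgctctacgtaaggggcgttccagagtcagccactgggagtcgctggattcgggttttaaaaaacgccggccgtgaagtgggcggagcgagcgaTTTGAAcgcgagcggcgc
CDC20, chr1:43358731-43358980, plus strand: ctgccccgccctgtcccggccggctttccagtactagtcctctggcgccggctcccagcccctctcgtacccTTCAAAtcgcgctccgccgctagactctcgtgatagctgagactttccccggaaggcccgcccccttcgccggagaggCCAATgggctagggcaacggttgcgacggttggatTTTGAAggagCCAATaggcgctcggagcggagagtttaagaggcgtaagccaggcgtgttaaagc
CCNB1, chr5:69166900-69167149, plus strand: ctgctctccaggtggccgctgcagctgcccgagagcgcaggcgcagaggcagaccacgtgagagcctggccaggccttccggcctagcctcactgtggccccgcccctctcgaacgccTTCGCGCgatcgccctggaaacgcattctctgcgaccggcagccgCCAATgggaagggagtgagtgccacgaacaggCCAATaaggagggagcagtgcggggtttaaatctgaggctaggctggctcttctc
AURKB, chr17:8210226-8210475, minus strand: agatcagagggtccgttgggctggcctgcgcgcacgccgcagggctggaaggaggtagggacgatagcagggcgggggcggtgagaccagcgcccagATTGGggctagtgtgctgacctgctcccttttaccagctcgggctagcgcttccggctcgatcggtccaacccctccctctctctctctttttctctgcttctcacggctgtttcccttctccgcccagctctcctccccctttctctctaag
SPC24, chr19:11155783-11156032, minus strand: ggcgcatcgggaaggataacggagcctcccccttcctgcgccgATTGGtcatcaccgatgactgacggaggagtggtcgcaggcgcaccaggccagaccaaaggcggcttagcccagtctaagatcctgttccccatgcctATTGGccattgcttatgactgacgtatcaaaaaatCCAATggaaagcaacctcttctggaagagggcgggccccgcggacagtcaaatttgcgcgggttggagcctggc
ECT2, chr3:172750476-172750725, plus strand: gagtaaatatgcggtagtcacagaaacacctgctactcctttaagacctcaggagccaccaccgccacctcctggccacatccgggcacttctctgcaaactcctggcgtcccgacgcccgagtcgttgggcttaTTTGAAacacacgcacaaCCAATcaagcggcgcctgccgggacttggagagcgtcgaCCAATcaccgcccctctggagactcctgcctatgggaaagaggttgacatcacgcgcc

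CENPA had 1 CHR, 2 CCAAT boxes and 1 E2F site, CDC20 had 2 CHR and 2 CCAAT boxes, and ECT2 had 1 CHR and 2 CCAAT boxes. SPC24 had 3 CCAAT boxes, CCNB1 had 2 with 1 E2F site, and AURKB had 1. The element pattern of ECT2 (mean response 0.07) was thus close to that of CENPA (-0.52) and CDC20 (-0.48). The sign of the ECT2 response was not settled. It was -0.16 to 0.18 when 1 array was left out, and -0.10 (SE 0.20) in the hairpin arrays alone.

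Correlations between the 60 genes among arrays of the same group were described in each line. Over the 28 CHP134 arrays, the deviations from the group means had a median correlation of 0.32 over 1770 pairs of genes, and 77.1% of pairs were above 0. Over the 12 SK-N-AS arrays the median was 0.08 and 55.5% were above 0. Between all 21448 clusters the median was 0.00 in both lines. Genes of 1 array share its RNA and its normalisation, and letters E and F of shRNA-1 enter the CHP134 value.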

How the data were processed

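RNA was measured on Clariom S arrays, and samples were grouped by their titles. The authors normalised the arrays by RMA and deposited log2 intensities. Their processing notes name RMA and limma, versions and genome build are not given in the sources used here, and the lines appeared to have been normalised separately. The 44 columns held 40 distinct arrays, because 4 CHP134 control arrays (repeats A and B) were also deposited as identical copies, counted once. Titles and series design text swap the repeat letters of shRNA-1 and shRNA-2, and the titles were followed. Of 27189 rows, 5741 control probe sets were left out, and 21448 transcript clusters were tested, 17709 of them with a gene symbol.

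Group means were fitted with limma 3.58.1 (lmFit and eBayes, R 4.3.3) and tested two-sided, with Benjamini-Hochberg adjustment over the 21448 clusters and a threshold of 0.05. A gene past it is called. The shRNA-1 response used 16 arrays with control letters A, B, E and F, the shRNA-2 response 16 arrays with control letters A to D, all other CHP134 comparisons 28 arrays, and SK-N-AS comparisons 12. The steps were tested on simulated data with independent noise on each array and planted changes larger than most responses here. Effects shared by arrays of the same letter were not simulated. The number of arrays limits the precision.

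In CHP134, same-letter arrays of different groups deviated together (54 of 54 pairs above 0.1, 0.14 to 0.59), so the letters were taken to pair the arrays, and the replicate block is given where it changed a call (11 genes called in place of 2 in the mean response).

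The members and lists were chosen with earlier results of these data known. Genes were named if called in a comparison, if among the 2 smallest p-values of a role in the mean response, the 6 smallest in the SK-N-AS response, the 4 smallest in another comparison or the 6 highest mean responses, and AURKA, FOXM1, AURKB and SPC24 were named throughout. Other members named were chosen after their values were seen. Alternatives were median centring, quantile normalisation, trend and robust moderation, a filter on dim clusters, blocks, other control arrays, and each array left out. Those using the hairpin arrays alone, the block of hairpin and letter, and the fits without arrays that stood apart were added after the data were seen.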

Additional observations from a re-analysis of the deposited data

Results flagged for a closer look

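In 13 cases, 1 array lay far from the others of its group for a gene of the report, by Dixon's test on log2 intensity in CHP134. Chance flags about 1 in 20 groups, and 25 of 366 combinations of gene and group were flagged in all. The shRNA-2 DOX array A was the lowest for CDC20 (9.56), CDCA8 (9.122) and CDCA5 (8.2), and this array also gave the lowest median change over the 60 genes. The control DOX array A was the lowest for NEK2 (8.385), BUB1 (8.328) and ECT2 (7.68), and control DOX array C was the lowest for BUB3 (10.3). The shRNA-1 arrays stood apart for NEK2 in vehicle array A (8.634, lowest), CKAP2L in vehicle array B (8.827, highest) and ECT2 in DOX array E (8.847, highest). Among control vehicle arrays, the value was lowest for CDC20 in array C (9.525) and for CENPA in array A (7.898), and highest for CENPE in array D (8.776).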

How the results depend on the processing

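In the CHP134 mean response, 2 genes were called with the values as given. The count was 11 with the replicate block, 10 with the pair of letters as a block, 14 with the block of hairpin and letter, 20 in the hairpin arrays alone, 1 with trend and robust moderation (FOXM1 missed, adjusted p = 0.051), 0 after median centring (AURKA and FOXM1 both at 0.0502), and 0 to 3 when 1 array was left out. For shRNA-2, with 1 called, it was 3 under each of the 3 blocks, 8 in the hairpin arrays alone, 2 with all 28 arrays in the fit, and 0 to 2 when 1 array was left out. For shRNA-1, with 0 called, it was 1 with the pair of letters as a block, 1 with the block of hairpin and letter and 1 in the hairpin arrays alone. The difference between hairpins had 1 call (AURKA) under each of the 3 blocks. The SK-N-AS response had 3 calls in the hairpin arrays alone and 0 to 1 when 1 array was left out, and uninduced SK-N-AS cells had 2 without the 2 control arrays that stood apart. Uninduced shRNA-1 cells had 0 to 2 when 1 array was left out, and CENPF there changed sign, to 0.22, without the 4 arrays of letters E and F. In SK-N-AS, 4 of 18 same-letter pairs correlated above 0.1 (-0.47 to 0.41), so the letters were not taken to pair them, and the replicate block called 0 genes. The median over the 60 genes kept its sign in every response when 1 array was left out (mean -0.27 to -0.19, shRNA-1 -0.26 to -0.16, shRNA-2 -0.34 to -0.17, SK-N-AS -0.25 to -0.19), but that of the difference between hairpins reached 0.00 (-0.20 to 0.00). Where no share of all clusters called is given above, a changed count cannot be told apart from a change over all clusters. The cause of these changes was not tested. Each member had 1 transcript cluster, so the choice between clusters could not be varied. Genes near background are compressed by RMA, and 3 or 4 arrays a group leave small changes unresolved.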
